A study of Homo sapiens with 24 samples.

Results

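The genes described are 10 fibroblast growth factor (FGF) genes, 6 ligand family members (FGF2, FGF4, FGF8, FGF13, FGF17 and FGF19) and the 4 receptors FGFR1, FGFR2, FGFR3 and FGFR4. They were taken from the gene table by symbol, 10 of 57820 genes, and all 10 passed the filter on low values that kept 19835 genes. The cells were of HUES6, a line of human embryonic stem cells, grown in FTDA, a defined medium that contains added FGF2. The KO groups are labelled as knockout of RBPMS, an RNA-binding protein, and the WT groups as wild type. Mesoderm was induced with 1.5 ng/ml BMP4 and 1.5 µM CHIR, an inhibitor of GSK3 that switches on WNT signalling, and RNA was taken at 0, 3, 6 and 48 h of KO and WT cells, with 3 libraries in each of the 8 groups. Whether FTDA and its FGF2 stayed on the cells during induction, how many KO clones were used and whether libraries came from separate cultures are not given in the sources used here, so the p-values measure only the spread between these samples.

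FGFs are secreted proteins that bind receptor tyrosine kinases at the cell surface together with heparan sulfate, and the activated receptor passes its signal through RAS and the kinase ERK. Human pluripotent stem cells depend on FGF2 in culture, and in the mouse embryo Fgf4, Fgf8 and Fgf17 are known from the primitive streak, where Fgf8 and Fgfr1 are needed for cells to move through it. FGF13 belongs to the FGF homologous factors, which stay inside the cell and act on sodium channels and microtubules rather than on FGF receptors. FGF19 is a ligand that needs the co-receptor KLB for full activity on its receptors.

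FGFR2 and FGFR3 were the 2 members called between KO and WT cells at the same hour, and the stretches around their starts are shown for that reason. Both come from the RefSeq promoter table for GRCh38.p14, from 250 bases before to 50 bases after the start, read 5′ to 3′ on the strand of the gene. FGFR2 lies at chr10:121598395-121598694 on the minus strand and FGFR3 at chr4:1793043-1793342 on the plus strand. Capitals mark GGCGCC, a SMAD motif that reads the same on both strands.
FGFR2: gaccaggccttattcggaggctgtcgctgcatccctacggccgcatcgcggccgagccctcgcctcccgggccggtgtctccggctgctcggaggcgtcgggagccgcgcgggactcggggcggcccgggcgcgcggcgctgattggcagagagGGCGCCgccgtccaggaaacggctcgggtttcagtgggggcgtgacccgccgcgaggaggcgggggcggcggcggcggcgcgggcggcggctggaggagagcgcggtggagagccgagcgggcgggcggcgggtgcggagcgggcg
FGFR3: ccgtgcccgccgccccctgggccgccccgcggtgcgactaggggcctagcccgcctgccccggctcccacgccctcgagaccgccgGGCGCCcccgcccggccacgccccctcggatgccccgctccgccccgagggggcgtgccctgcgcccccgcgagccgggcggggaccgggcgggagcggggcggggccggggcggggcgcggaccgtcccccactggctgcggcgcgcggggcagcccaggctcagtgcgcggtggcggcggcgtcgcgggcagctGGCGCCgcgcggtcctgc
The FGFR2 stretch holds GGCGCC with its first base at position -96 from the start, and the FGFR3 stretch holds it at -164 and at 33. The table lists 5 starts for FGFR2, of which the one farthest upstream is shown, and another of them, at position 121596645, has GGCGCC at -239. The motif is common, found in 19.2% of the 35116 promoters of the table. Neither stretch holds the TCF/LEF motif CTTTGA, the ETS motif CCGGAA, the octamer ATGCAAAT or the T-box motif AGGTGTGA on either strand, and these occur in 12.9%, 17.2%, 1.77% and 0.98% of all promoters. A match describes letters only, and no binding was measured here.

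Libraries held 29896358 to 50451908 reads, and a level of 3 reads corresponds to 0.0595 to 0.1 CPM, the unit of the gene table, in which the reads of a gene are scaled to the same library total in every sample. Reads were not divided by gene length, so CPM values are compared between groups for 1 gene and levels of different genes are compared only per kilobase. Over all genes 3 libraries stood apart from the others of their group: WT 0 h library 1, KO 3 h library 3 and WT 48 h library 3. KO 3 h library 3 was higher than the mean of the other 2 by 0.69 for FGFR1, 0.64 for FGFR2, 0.67 for FGFR3 and 0.84 for FGFR4 on the log2 scale, and lower for FGF2 (-0.53). The deviation of all genes in that library followed the GC content of their exons (r = 0.396, a description across genes), as it did in WT 48 h library 3 (r = 0.423), and among the members FGF2 and FGF13 had the lowest GC (37.5% and 38.8%) and FGFR4 the highest (63.6%). Other members did not follow that order in KO 3 h library 3. FGF17 (63.1% GC) and FGF8 (60.3%), both with few reads, were at 0.00191 and -0.00294, while FGFR2 had 48.8% GC. WT 0 h library 1 was lower for FGF2 (-1.21) and higher for FGFR1 (0.58), with r = 0.116 to GC. Libraries that did not stand apart had r to GC content between -0.46 and 0.438, so that such a relation was not particular to these libraries, and the part of GC content in the results was not tested. Without the 3 libraries 68 of the 69 called results of the members stayed called, and values without them are given beside the results they moved most. Since these libraries were picked for differing from their group, leaving them out narrows the spread that all 8 groups share in the fit. Adjusted p-values without them, here and below, are therefore too low to be read as tests. RBPMS mRNA does not check the KO label: its mean was 155, 95.8, 99.9 and 86.9 CPM in KO cells at 0, 3, 6 and 48 h, and 135, 106, 106 and 98.2 CPM in WT cells.

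**Figure D1:**
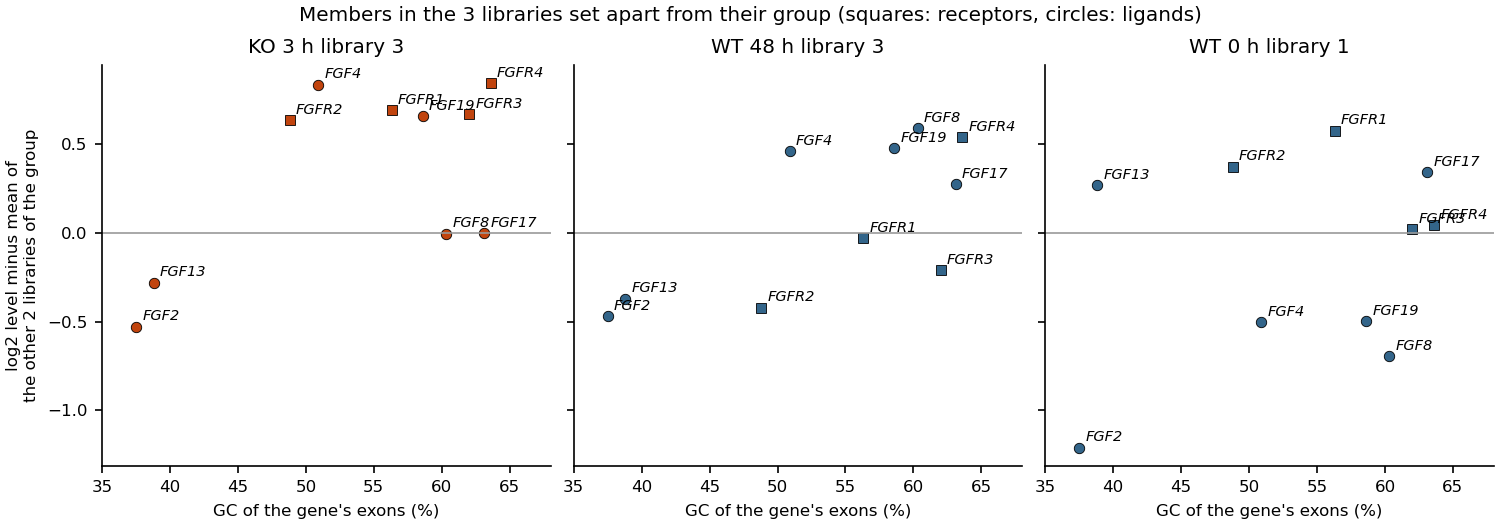
Deviation of each member in the 3 libraries that stood apart (vertical axis, log2 level minus the mean of the other 2 libraries of the group) against the GC content of its exons (horizontal axis, percent). In KO 3 h library 3 all 4 receptors sit above 0.6, while FGF2 and FGF13, the members with the lowest GC, sit below 0. FGF8 and FGF17, with 60.3% and 63.1% GC, are at -0.00294 and 0.00191 in that library.

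The 9 pluripotency markers were high before induction, with a summed level of 12913 to 13103 CPM in KO and 11982 to 12914 CPM in WT cells at 0 h. Their sum was 10213 to 11672 CPM in KO and 11135 to 11418 CPM in WT cells at 3 h, 10278 to 10541 CPM in KO and 10886 to 11124 CPM in WT cells at 6 h, and 7783 to 7972 CPM in KO and 5686 to 6082 CPM in WT cells at 48 h. The 10 primitive streak and early mesoderm markers summed to 1093 to 1233 CPM in KO and 2000 to 2377 CPM in WT cells at 48 h. Definitive endoderm markers, 4 of 5 in the table, summed to 209.8 to 238 CPM in KO cells and 146 to 169 CPM in WT cells at that hour. Of these 4 markers 2 were called higher in KO and 0 lower, and GATA6 averaged 88.3 CPM in KO and 93.8 CPM in WT cells. Neuroectoderm markers, with 1 gene at 1 CPM or more, summed to 155 to 180 CPM in KO and 104 to 130 CPM in WT cells at 48 h. Amnion and trophoblast markers were near 0 at 48 h (0.937 to 1.33 CPM in KO and 1.17 to 1.5 CPM in WT). In bulk RNA a smaller number of cells of a type and less RNA per cell cannot be told apart, and the part of these cell types in the FGF levels was not tested.

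In the text that follows, a log2 change is the first group minus the second on the log2(CPM + 0.25) scale with its standard error (SE), and the adjusted p is that of limma, corrected over all 19835 genes. A gene is called, and is said to have risen or fallen, at an adjusted p under 0.05. Comparisons of later hours with 0 h use the same 0 h libraries.

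**Figure D2:**
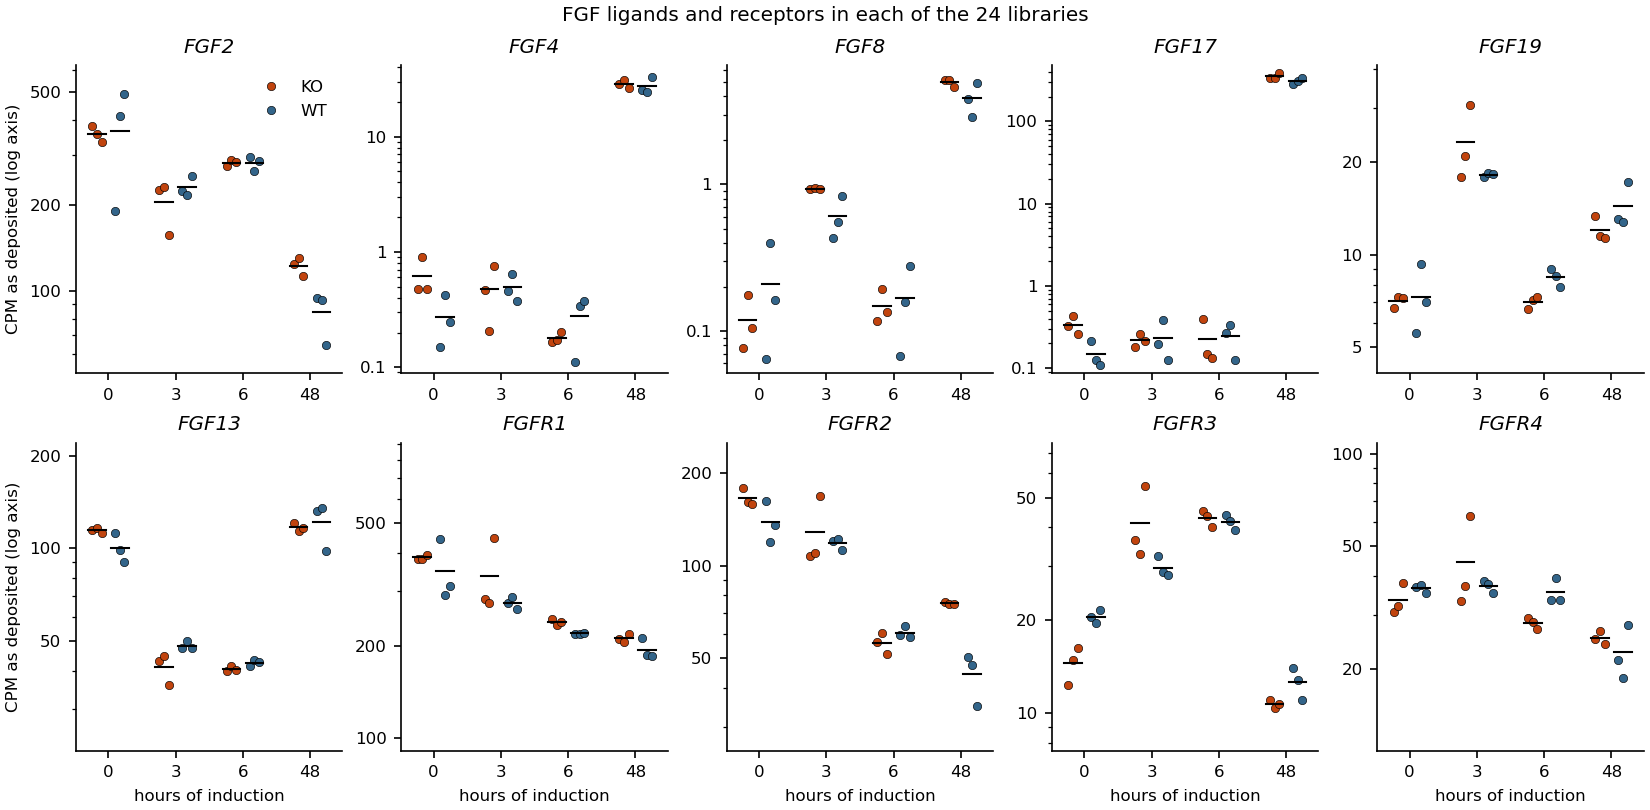
CPM of the 10 members in each of the 24 libraries (log vertical axis) at 0, 3, 6 and 48 h, with KO points left of WT points and a bar at each group mean. FGF4, FGF8 and FGF17 lie below 1 CPM before 48 h, FGF8 with a rise at 3 h, and are highest in all 6 libraries at 48 h. FGF8 reaches only 2.89 to 5.17 CPM there, and FGF2 is lowest at 48 h.

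FGF2 (ENSG00000138685.8, chr4:122826708-122898236, plus strand), the ligand that maintains human pluripotent cells, fell over the 48 h in both genotypes. At 0 h FGF2 had 381, 355 and 333 CPM in KO libraries, against 192, 414 and 494 CPM in WT libraries. Library 1 of WT is the low one, and the groups overlap. At 3 h FGF2 had 227, 232 and 158 CPM in KO and 225, 217 and 253 CPM in WT. The 6 h values were closer together, 275, 289 and 285 CPM in KO and 297, 265 and 286 CPM in WT. By 48 h FGF2 had 125, 130.3 and 113 CPM in KO libraries, against 94.8, 93.4 and 64.8 CPM in WT libraries, the lowest levels of the series, and the groups did not overlap. The log2 change from 0 to 48 h was -1.59 ± 0.21 in KO cells (adjusted p 1.46e-06) and -2.05 ± 0.21 in WT cells (2.82e-08), and without the 3 libraries that stood apart it was -1.54 and -2.29. At 3 h it had fallen in KO cells (-0.76 ± 0.21, adjusted p 0.00325), and the WT value of -0.45 ± 0.21 missed the threshold (0.0746). Without WT 0 h library 1 the adjusted p of that WT value was 3.23e-05, and without the 3 libraries the value was -0.89. The gene NUDT6, antisense to FGF2, was at 3.33 to 5.64 CPM, and whether counting used strand is not stated.

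FGF4 (ENSG00000075388.2, chr11:69771016-69775403, minus strand), which in the mouse is made by the epiblast and primitive streak, rose at 48 h from a low level in the gene table. The 18 libraries of 0, 3 and 6 h held only 5 to 36 gene reads of it each. At 0 h that was 0.481, 0.899 and 0.472 CPM in KO libraries and 0.151, 0.424 and 0.245 CPM in WT libraries. The 3 h values of FGF4 were 0.463, 0.206 and 0.756 CPM in KO and 0.456, 0.647 and 0.377 CPM in WT, and the 6 h values 0.164, 0.171 and 0.201 CPM in KO and 0.112, 0.337 and 0.377 CPM in WT. All of these lie below 1 CPM, and by gene reads the genotypes overlap at 3 and 6 h. The transcript counts of FGF4, which exceed its gene reads, did not overlap at 3 h. Scaled to the gene reads of the library as CPM are, they were 2.61 to 2.7 in KO and 3.6 to 4.24 in WT libraries. At 0 h KO was the higher group in these counts, at 5.61 to 5.92 against 1.94 to 3.67 in WT. At 6 h the genotypes overlapped in them, at 1.04 to 1.73 in KO and 1.56 to 1.74 in WT. The transcript counts were not tested. The 48 h libraries held 28.5, 30.9 and 26.4 CPM in KO and 25.6, 24.5 and 33 CPM in WT, and the genotypes overlapped. Its mean CPM was 46.3 times that of 0 h in KO cells (log2 change 5.03 ± 0.27, adjusted p 3.54e-13) and 101 times in WT cells (5.71 ± 0.27, 2.28e-14). In KO cells FGF4 also fell at 6 h against 0 h (-0.94 ± 0.27, adjusted p 0.00333). The KO minus WT difference at 0 h was 0.75 ± 0.27 (adjusted p 0.0587), and it passed the test when WT 0 h library 2 was left out (0.0465).

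FGF8 (ENSG00000107831.8, chr10:101770130-101780369, minus strand), a ligand known for guiding cells through the mouse primitive streak, rose for a short time at 3 h and again at 48 h. Before induction FGF8 had 0.0759, 0.175 and 0.105 CPM in KO and 0.0647, 0.399 and 0.163 CPM in WT, which are 14 and 25 reads over the 3 libraries. The 3 h values were 0.925, 0.952 and 0.929 CPM in KO libraries, against 0.434, 0.551 and 0.829 CPM in WT libraries. All KO libraries were above all WT libraries at that hour, but the difference missed the test (0.50 ± 0.24, adjusted p 0.308). At 6 h FGF8 was back at 0.117, 0.193 and 0.134 CPM in KO and 0.067, 0.159 and 0.277 CPM in WT. At 48 h FGF8 had 5.15, 5.17 and 4.62 CPM in KO and 3.81, 2.89 and 4.91 CPM in WT. The rise at 3 h was 1.73 ± 0.24 in KO cells (adjusted p 1.32e-06) and 0.99 ± 0.24 in WT cells (0.00127), and the fall between 3 and 6 h was -1.58 in KO (5.89e-05) and -1.04 in WT (0.00458). At 48 h the change from 0 h was 3.78 ± 0.24 in KO and 3.15 ± 0.24 in WT (adjusted p 8.48e-12 and 1.51e-10).

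FGF17 (ENSG00000158815.6, chromosome 8), a close relative of FGF8, made the widest change of the members. Before 48 h its libraries held 4 to 17 reads each, with 0.329, 0.424 and 0.262 CPM in KO and 0.216, 0.125 and 0.109 CPM in WT at 0 h. It stayed as low at 3 h, with 0.18, 0.257 and 0.216 CPM in KO and 0.195, 0.383 and 0.126 CPM in WT, and at 6 h, with 0.398, 0.15 and 0.134 CPM in KO and 0.268, 0.337 and 0.126 CPM in WT. All KO libraries were above all WT libraries at 0 h, and the genotypes overlap at 3 and 6 h. At 48 h FGF17 had 337, 339.7 and 384 CPM in KO libraries and 283, 311 and 342 CPM in WT libraries, with overlap. The log2 change from 0 h was 9.18 ± 0.22 in KO cells (adjusted p 1.14e-19) and 9.55 ± 0.22 in WT cells (5.9e-20), a ratio of mean CPM of 1044 and 2083. The KO and WT libraries of 0 h did not overlap, at a difference of 0.58 ± 0.22 (adjusted p 0.0736). The adjusted p was 0.0247 when WT 0 h library 1 was left out, and the difference was 0.68 (0.0136) when all 3 libraries that stood apart were.

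FGF19 (ENSG00000162344.3, chr11:69698232-69704642, minus strand) peaked at 3 h in both genotypes. It had 6.73, 7.29 and 7.21 CPM in KO and 5.56, 9.36 and 7.01 CPM in WT at 0 h. At 3 h FGF19 had 17.9, 21 and 30.6 CPM in KO libraries and 17.9, 18.4 and 18.3 CPM in WT libraries, where 30.6 CPM belongs to KO library 3. The levels of 6 h returned to 6.66, 7.12 and 7.29 CPM in KO and 9, 8.5 and 7.88 CPM in WT, and all WT libraries were above all KO libraries. At 48 h FGF19 had 13.3, 11.5 and 11.3 CPM in KO and 13.1, 12.8 and 17.3 CPM in WT. The rise at 3 h was 1.69 ± 0.17 in KO cells (adjusted p 1.02e-08) and 1.41 ± 0.17 in WT cells (2.71e-07), the fall between 3 and 6 h -1.62 in KO and -1.05 in WT, and the change from 0 to 48 h 0.69 in KO (0.00158) and 0.95 in WT (6.01e-05). Leaving out the 3 libraries that stood apart gave 1.47 in KO and 1.21 in WT for the rise at 3 h, and 0.74 in KO and 0.63 in WT at 48 h. Its co-receptor KLB was low throughout, at 0.0525 to 0.202 CPM in KO libraries and 0 to 0.19 CPM in WT libraries at 0 h, 0 to 0.0257 CPM and 0.359 to 0.578 CPM at 3 h, 0 to 0.0469 CPM and 0.156 to 0.555 CPM at 6 h, and 0.225 to 0.509 CPM and 0.0997 to 0.227 CPM at 48 h. In these KLB values KO was the lower group at 3 and 6 h and, with a small overlap, the higher one at 48 h. No test of KLB is given here, and KO and WT libraries did not overlap for 24.1% and 30.3% of all genes at 3 and 6 h.

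FGF13 (ENSG00000129682.9, chrX:138614731-139222777, minus strand), the intracellular family member, was low at 3 and 6 h and back near its starting level at 48 h. Before induction FGF13 had 115, 116 and 112 CPM in KO and 112, 99 and 90 CPM in WT. The 3 h libraries held 43, 44.8 and 35.9 CPM in KO and 47.4, 50.1 and 47.3 CPM in WT, without overlap, and the 6 h libraries 40, 41.3 and 40.2 CPM in KO and 41.5, 43.3 and 42.8 CPM in WT. At 48 h FGF13 had 120.4, 114 and 116 CPM in KO and 132, 135 and 98.2 CPM in WT. The fall at 3 h was -1.43 ± 0.10 in KO cells (adjusted p 1.74e-11) and -0.94 ± 0.10 in WT cells (2.71e-08), and between 6 and 48 h FGF13 rose by 1.38 in KO and 1.34 in WT. A rise of 0.25 in WT cells from 0 to 48 h was called (adjusted p 0.0352), but not without WT 0 h library 2 or 3 or WT 48 h library 1 or 2 (0.0758, 0.194, 0.133 and 0.169), and it was 0.47 (5.54e-08) without the 3 libraries that stood apart. The overlapping antisense gene FGF13-AS1 was at 4.27 to 16.6 CPM.

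FGFR1 (ENSG00000077782.15, chromosome 8), a receptor for FGF2 and FGF4, fell as induction went on. At 0 h FGFR1 had 383, 383 and 394 CPM in KO libraries and 442, 292 and 312 CPM in WT libraries, with WT library 1 the highest of all. At 3 h FGFR1 had 284, 275 and 448 CPM in KO, library 3 being the high one, and 274, 287 and 263 CPM in WT. The 6 h values were 243, 234 and 238 CPM in KO and 218, 218 and 220.1 CPM in WT, without overlap, and the 48 h values 209.6, 206 and 218 CPM in KO and 211, 186 and 185 CPM in WT. The fall from 0 h was -0.61 ± 0.14 in KO and -0.51 ± 0.14 in WT at 6 h (adjusted p 0.000591 and 0.00333), and -0.93 and -0.84 at 48 h (9.14e-06 and 2.78e-05). In KO cells the 3 h change was -0.19 (adjusted p 0.243) with all libraries and -0.42 (3.48e-08) without the 3 that stood apart. Against WT at 0 h, FGFR1 differed by 0.23 ± 0.14 in KO cells (adjusted p 0.305), by 0.39 without the 3 libraries (5.76e-07), and the adjusted p was 0.0143 when only WT 0 h library 1 was left out. LETM2, which overlaps FGFR1, was at 1.53 to 2.71 CPM.

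FGFR2 (ENSG00000066468.16, chr10:121478334-121598458, minus strand) fell during induction and was left higher in KO than in WT cells at 48 h. At 0 h FGFR2 had 179, 160.5 and 158 CPM in KO and 162, 119 and 135 CPM in WT. The 3 h libraries had 107, 110.1 and 168 CPM in KO and 120.3, 122 and 112 CPM in WT, with KO library 3 far above the rest. At 6 h FGFR2 had 56.6, 60.6 and 51.5 CPM in KO and 59.5, 63.5 and 58.7 CPM in WT. The groups parted at 48 h, with 76, 75.2 and 74.8 CPM in KO libraries, against 50.7, 47.7 and 35 CPM in WT libraries. The change from 0 to 6 h was -1.47 ± 0.14 in KO (adjusted p 3.89e-09) and -1.05 ± 0.14 in WT (1.05e-06). Between 6 and 48 h the change of FGFR2 was 0.28 in KO cells (adjusted p 0.0856), and in WT cells it fell further (-0.62, 0.000578). A fall in KO cells at 3 h was called by a small margin (-0.35, adjusted p 0.034), and it was lost when library 1 or 2 of KO 0 h (0.121 and 0.0551) or of KO 3 h (0.204 and 0.16) was left out, while without the 3 libraries that stood apart it was -0.56.

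FGFR3 (ENSG00000068078.13, chr4:1793293-1808872, plus strand), the receptor that restrains bone growth in the skeleton, rose early and then fell below its start. At 0 h FGFR3 had 12.3, 14.9 and 16.3 CPM in KO libraries, against 20.4, 19.6 and 21.5 CPM in WT libraries, without overlap. At 3 h FGFR3 had 36.5, 32.8 and 54.7 CPM in KO and 32.2, 28.7 and 28 CPM in WT, so that KO was now the higher group, without overlap. The 6 h values were 45.2, 43.5 and 40.1 CPM in KO and 44, 42 and 39.3 CPM in WT, and the 48 h values 11, 10.4 and 10.7 CPM in KO and 14, 12.8 and 11 CPM in WT. The rise from 0 to 3 h was 1.52 ± 0.13 in KO cells (adjusted p 1.37e-09) and 0.62 ± 0.13 in WT cells (0.000431), and at 6 h 1.65 in KO (2.93e-10) and 1.15 in WT (1.45e-07). With the 3 libraries that stood apart left out, the rise at 3 h was 1.30 in KO and 0.60 in WT. At 48 h FGFR3 stood below 0 h by -0.47 in KO (adjusted p 0.00507) and -0.72 in WT (0.000107).

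FGFR4 (ENSG00000160867.10, chr5:177086886-177098144, plus strand), the receptor through which FGF19 acts in the liver, had fallen in both genotypes by 48 h. At 0 h FGFR4 had 30.5, 32.1 and 38 CPM in KO and 36.8, 37.5 and 35.3 CPM in WT. The 3 h libraries had 33.3, 37.2 and 62.9 CPM in KO, library 3 again the high one, and 38.5, 37.8 and 35.3 CPM in WT. At 6 h FGFR4 had 29.2, 28.3 and 26.9 CPM in KO libraries and 33.4, 39.6 and 33.6 CPM in WT libraries, without overlap. By 48 h it had 25, 26.6 and 24.1 CPM in KO and 21.4, 18.7 and 27.9 CPM in WT. The fall from 0 to 48 h was -0.46 ± 0.17 in KO cells (adjusted p 0.0259) and -0.72 ± 0.17 in WT cells (0.000911), the KO call being lost without KO 0 h library 3, KO 48 h library 1 or KO 48 h library 3 (0.115, 0.0713 and 0.0901). A rise in KO cells at 3 h (0.40, adjusted p 0.0387) rested on KO 3 h library 3, without which the adjusted p was 0.425, and it was lost also without KO 0 h library 1 or 2 (0.129 and 0.0931). Without the 3 libraries that stood apart it was 0.12 (0.196).

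Counted over the members, 7 of 10 changed at 3 h against 0 h in KO cells, 4 higher and 3 lower, where 65.7% of all genes were called (33.1% higher and 32.6% lower). In WT cells 4 changed at 3 h, 3 higher and 1 lower, where 55.7% of all genes were called (28.6% higher and 27.2% lower). At 6 h 5 members had changed in KO cells, 1 higher and 4 lower, against 68.5% of all genes (33.4% higher and 35.1% lower), and 4 in WT cells, 1 higher and 3 lower, against 62.1% of all genes (31.1% higher and 31% lower). These shares of members lie near or below those of all genes.

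At 48 h 9 members had changed from 0 h in KO cells, 4 higher and 5 lower, against 52.8% of all genes (25.4% higher and 27.4% lower), and 10 in WT cells, 5 higher and 5 lower, against 53.3% of all genes (26.8% higher and 26.5% lower). FGF4, FGF8, FGF17 and FGF19 rose in both genotypes, and FGF2 and the 4 receptors fell in both. FGF13 stood at a change of -0.03 in KO cells (adjusted p 0.848) and rose in WT cells by the call named above.

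From 3 to 6 h 5 members fell and 0 rose in KO cells, against 18.8% of all genes called (7.66% higher and 11.1% lower), and 3 fell and 1 rose in WT cells, against 15.1% of all genes (6.75% higher and 8.31% lower). FGF8, FGF19 and FGFR2 fell in both genotypes in that interval, and FGFR3 rose in WT cells (0.53, adjusted p 0.00971). The KO falls of FGFR1 (-0.42, 0.0409) and FGFR4 (-0.56, 0.0214) were lost when KO 3 h library 3 was left out (0.304 and 0.171). They were lost also without single KO 6 h libraries, for FGFR1 library 1, 2 or 3 (0.0765, 0.101 and 0.0966) and for FGFR4 library 2 or 3 (0.0518 and 0.0703), and with all 3 libraries that stood apart left out they were -0.19 (0.00391) and -0.28 (0.0116). From 6 to 48 h 7 members changed in KO cells, 5 higher and 2 lower, against 62.8% of all genes (30.2% higher and 32.6% lower), and 10 in WT cells, 5 higher and 5 lower, against 63.8% of all genes (30.9% higher and 32.8% lower). Among those falls FGFR3 changed by -2.12 in KO cells and -1.87 in WT cells. One of the WT calls, FGFR1 (-0.33, adjusted p 0.0452), was lost without any of the WT 6 h libraries or without WT 48 h library 2 or 3 (0.0804 to 0.125).

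**Figure D3:**
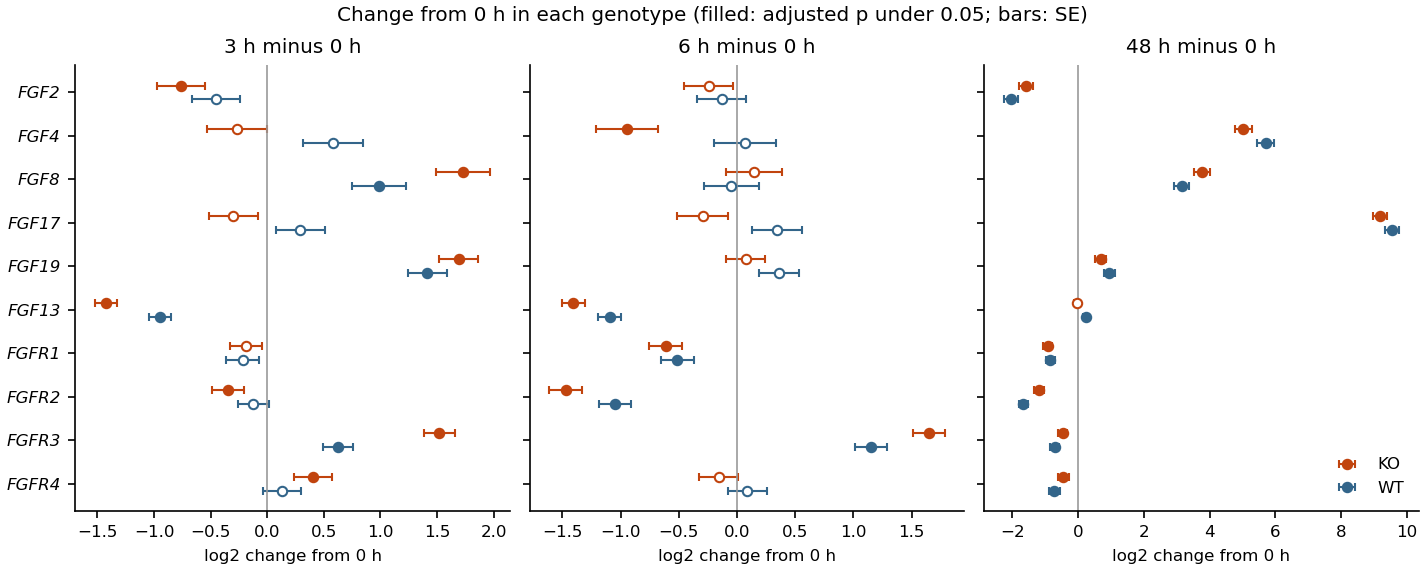
Log2 change of each member from 0 h at 3, 6 and 48 h (horizontal axis) with its SE, KO above WT, filled where called by limma. FGF17, FGF4 and FGF8 reach 9.18, 5.03 and 3.78 in KO and 9.55, 5.71 and 3.15 in WT at 48 h, and FGFR3 is up at 3 and 6 h and below 0 at 48 h.

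Between the genotypes at the same hour, 1 member was lower and 0 were higher in KO than in WT cells at 0 h, where 15.3% of all genes were called (8.77% higher and 6.52% lower). At 3 h 0 members were called, against 2.78% of all genes (0.862% higher and 1.92% lower), and at 6 h 0, against 2.45% (0.555% higher and 1.9% lower). At 48 h 1 member was higher and 0 were lower, against 11.9% of all genes (6.86% higher and 5.07% lower). KO and WT libraries did not overlap for 4, 3, 4 and 2 members at 0, 3, 6 and 48 h, and for 25.7%, 24.1%, 30.3% and 35.9% of all genes. The median log2 difference of the 10 members, KO minus WT, was 0.17, 0.15, -0.06 and 0.17 at the 4 hours, against 0.009, 0.016, 0.008 and -0.011 over all genes. At 3 h 3 members had an unadjusted p under 0.05, edgeR called 0 of them and DESeq2 called 1, FGFR3 (0.47, adjusted p 0.0282). At 6 h no member had an unadjusted p under 0.05, and edgeR and DESeq2 called 0.

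FGFR2 at 48 h was the member that stood higher in KO cells, with means of 75.3 ± 0.651 CPM in KO and 44.4 ± 8.34 CPM in WT (SD, n = 3 each). The log2 difference was 0.80 ± 0.14 (adjusted p 0.000336), and it passed the test under every alternative run, with a highest adjusted p of 0.00448. It was 0.67 without the 3 libraries that stood apart, of which WT 48 h library 3 was the lowest for FGFR2 (35 CPM). Its change from 0 to 48 h was not called different between the genotypes (0.48, adjusted p 0.156).

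FGFR3 at 0 h was the member that stood lower in KO cells, with means of 14.5 ± 2.01 CPM in KO and 20.5 ± 0.98 CPM in WT (SD, n = 3 each), a log2 difference of -0.45 ± 0.13 (adjusted p 0.0268). The call was lost without WT 0 h library 2 or 3 (0.0528 and 0.0834), without KO 0 h library 1 or 2 (0.156 and 0.0558) and when only the 2 groups were fitted (0.134), and the difference was -0.48 (9.88e-05) without the 3 libraries that stood apart. At 3 h the sign was the other way, at 0.45 (adjusted p 0.0841), which passed without KO 3 h library 2 (0.0153) and was 0.23 (0.128) without the 3 libraries that stood apart.

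The change from 0 to 3 h itself differed between the genotypes for 2 members, 1 higher and 1 lower in KO, where 9.02% of all genes were called (3.59% higher and 5.43% lower). FGFR3 rose more in KO cells, by 0.90 ± 0.19 on the log2 scale (adjusted p 0.00375), and the call held in every alternative run, with a highest adjusted p of 0.0492 and a value of 0.70 without the 3 libraries that stood apart. FGF13 fell more in KO cells, by -0.48 ± 0.14 (adjusted p 0.0293). That call was lost without any of 8 of the 12 libraries it rests on, WT 0 h library 2 or 3, KO 0 h library 1 or 2, WT 3 h library 1, 2 or 3 and KO 3 h library 3 (0.0503 to 0.0955), and was -0.44 (2.38e-05) without the 3 libraries that stood apart. It was lost also with CPM as deposited (0.0614), with no filter (0.0696) and with only the groups compared (0.119). In the transcript counts of FGF13, which hold 25.3% of its gene reads, the genotypes overlapped at 3 h. At 6 h 0 members were called for a different change, against 8.58% of all genes (3.12% higher and 5.46% lower), and at 48 h 0, against 7.75% (3.83% higher and 3.92% lower), with 5 and 1 at an unadjusted p under 0.05, 0 by edgeR at both hours and 1 and 0 by DESeq2 (FGF4 at 6 h, -1.87, adjusted p 0.0207). Without the 3 libraries that stood apart 7 members had an adjusted p under 0.05 at 3 h, 7 at 6 h and 6 at 48 h, among them FGF2 at 48 h (0.75, adjusted p 2.57e-06). The share of all genes that did so in that fit is not given here, and its adjusted p-values cannot be read as tests. These counts therefore say nothing particular about the members.

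The 3 libraries that stood apart bear on several differences that were not called with all libraries. The fit without them has a narrower spread by that choice, so its adjusted p-values are given as description only. Without these libraries FGF2 was higher in KO than in WT cells at 48 h (0.43, adjusted p 6.16e-05), against 0.58 ± 0.21 (0.0837) with all of them. At 0 h it turned from 0.12 (0.76) to -0.32 (0.00093). FGFR4 at 48 h was 0.38 (0.0013) without them and 0.19 (0.546) with them. At 6 h, where no library was left out, it was -0.32 both with and without them (0.538 and 0.0053), so there the spread changed and not the difference. FGFR2 at 0 h was 0.41 (1.29e-05) without them and 0.32 (0.132) with them, and FGF13 at 0 h 0.31 (1.8e-05) and 0.25 (0.0845). FGFR3 at 48 h, lower in KO in both fits, was -0.27 (0.0314) and -0.21 (0.387). At 3 h FGFR1, FGFR2 and FGFR4 came to 0.03, -0.12 and -0.08 without them, against 0.25, 0.09 and 0.20 with KO library 3 included.

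**Figure D4:**
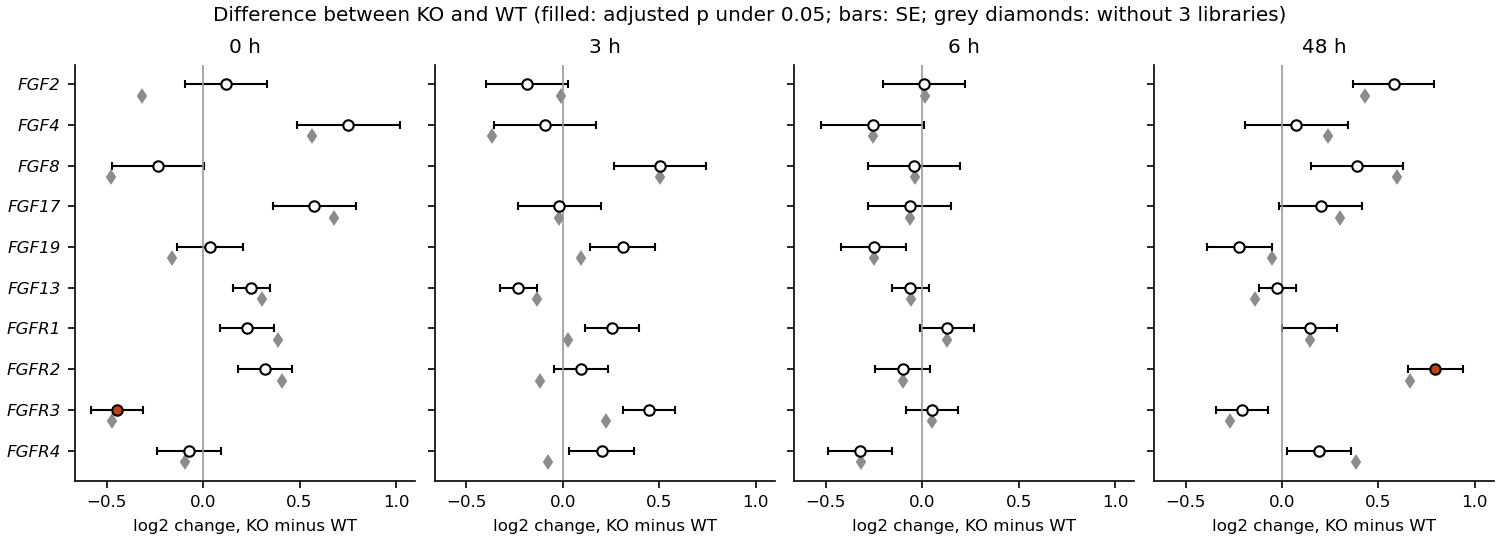
Log2 difference KO minus WT of each member at 0, 3, 6 and 48 h with its SE, filled where called by limma, and as grey diamonds without the 3 libraries that stood apart. FGFR2 at 48 h (0.80) and FGFR3 at 0 h (-0.45) are the filled points, and FGF2 at 0 h changes side without the 3 libraries.

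Levels of different genes were set side by side as CPM per kilobase of the merged exons of basic protein-coding transcripts in GENCODE 29. These levels are approximate, since the identifier version of 9 of the 10 members differs from that annotation. Of the receptor sum, FGFR1 held 60.6% ± 0.538 in KO and 58.9% ± 3.35 in WT cells at 0 h (SD, n = 3 each), and the largest share at each hour. FGFR3 had 3.32% in KO and 5.19% in WT at 0 h, 9.90% and 8.51% at 3 h, 15.2% and 14.8% at 6 h, and 4.44% and 6.09% at 48 h. FGFR2 had 25.3% in KO and 23% in WT at 0 h, 13.2% and 14.3% at 6 h, and 20.8% ± 0.352 and 14.3% ± 2.32 at 48 h. The receptor sum itself was 53.9 ± 0.585 CPM per kilobase in KO and 46.3 ± 2.99 in WT at 48 h, against 97.8 ± 1.75 in KO and 90.2 ± 15.7 in WT at 0 h. Among the 6 ligand family members FGF2 held 7.43% in KO and 5.86% in WT at 48 h, against 85.3% in KO and 85.1% in WT at 0 h, and FGF17 at 48 h held 82.8% ± 1.8 in KO and 83.1% ± 1.57 in WT. FGF19 took 22.5% ± 8.49 in KO and 16.6% ± 0.995 in WT at 3 h. The ligand sum was 244.9 ± 12.7 CPM per kilobase in KO and 215 ± 16.5 in WT at 48 h, against 61.6 in KO and 62.4 in WT at 0 h. With the merged exons of all transcripts as the length, FGF17 held 72.3% in KO and 72.7% in WT at 48 h and FGFR1 46.7% and 45.2% at 0 h.

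**Figure D5:**
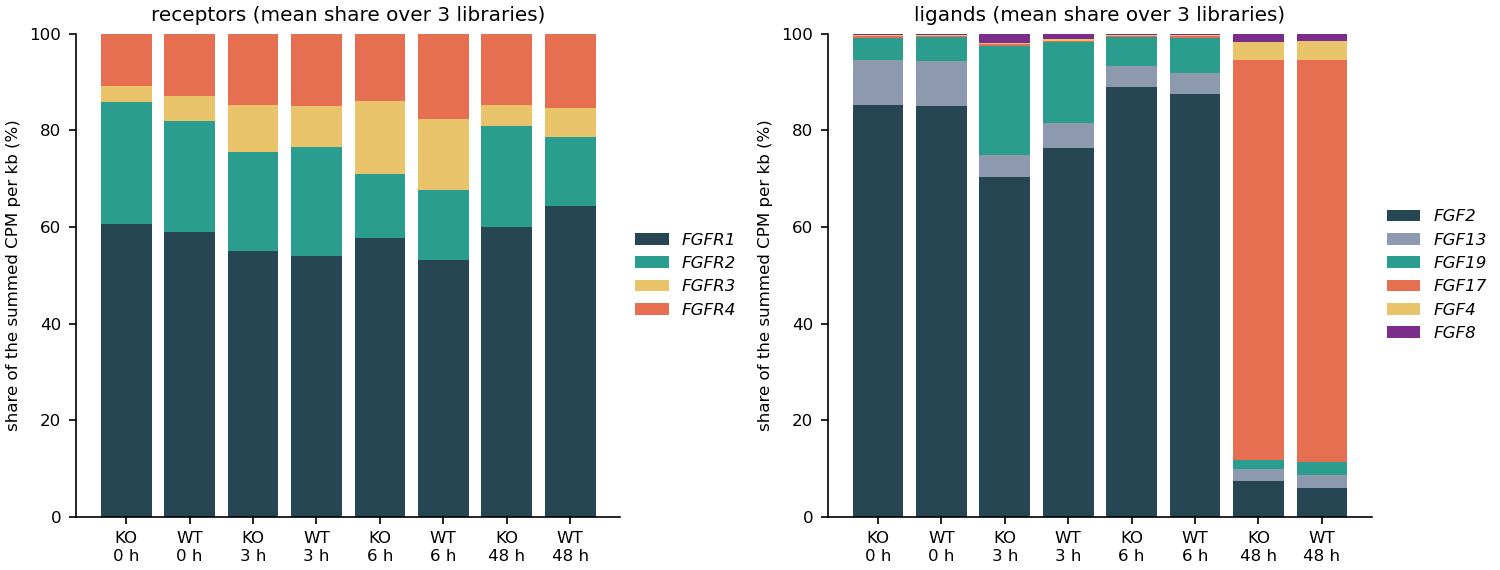
Share of each receptor (of the 4) and each ligand family member (of the 6) in the summed CPM per kilobase, in percent, at 0, 3, 6 and 48 h with KO left of WT, as means of 3 libraries. FGFR1 is the largest receptor share in all groups, and the ligand sum by gene reads turns from FGF2 to FGF17 between 6 and 48 h. The FGF4 share rests on gene reads that fall short of its transcript counts.

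Ordered by mean CPM over the 8 groups, most neighbours overlapped in their libraries. FGF4 and FGF17 have 1 step without overlap, the one below the 48 h groups, and FGF2 has 4, with KO 48 h above WT 48 h as the last. FGF8 has 3 such steps, with KO and WT at 3 h between the 48 h groups and the rest. For FGFR2 KO 48 h stands above both 6 h groups and WT 48 h below them, and for FGFR3 KO 0 h lies with the 48 h groups while WT 0 h lies above them. FGFR4 has 2 steps, KO 6 h standing below 5 groups and above KO 48 h, which in turn overlaps WT 48 h.

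The deposited transcript counts describe the members only in part. They sum to 22.1% to 26.4% of the reads of a library, and for FGFR1, FGFR2, FGFR3, FGFR4, FGF2 and FGF8 they reach 0.274% to 4.12% of the gene reads, so splice forms of the receptors cannot be followed. For FGF4 the transcript counts exceeded the gene reads, 52922 against 7476 over all libraries, and they too were far higher at 48 h: scaled to the gene reads of the library as CPM are, they were 211 ± 10.4 in KO and 189 ± 31.3 in WT at 48 h, against 5.81 ± 0.169 and 3.05 ± 0.962 at 0 h, a ratio of 36.3 in KO and 62.1 in WT. FGF19 had 107%, FGF17 46% and FGF13, through FGF13-202, 25.3% of the gene reads. Scaled in the same way, the FGF13 counts were 28 ± 0.775 in KO and 24.9 ± 0.358 in WT at 0 h. At 3 h they were 10.8 ± 1.14 in KO and 10.4 ± 0.142 in WT. The genotypes overlapped in these counts at 3 h, where the gene reads had all KO libraries below all WT libraries.

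By the Pearson correlation of the 8 group means, over 12310 genes with at least 5 CPM in a group, FGF17 was most like SOX17 (r = 0.999), WSCD2 and ASB5. SOX17 is an endoderm transcription factor. FGF4 was most like CCDC50 (0.997), GSC (0.994), a transcription factor of the streak and organizer, and ROR2, a WNT5A receptor. FGF8 was most like ANGPTL2 (0.994) and LMX1B, and FGF2 most like THRB (0.991), MCOLN2 and SNHG16. FGFR2 was nearest to GALNT18 (0.983), WNK2 and PTCHD1, FGFR3 to TXNL4A (0.994), SNHG7 and MOCOS, FGFR1 to DUSP16 (0.987), a phosphatase of the kinases JNK and p38, RAB3GAP2 and RHPN2, and FGFR4 to EGR2 (0.967), SLC12A9 and DECR2. FGF13 was nearest to RAB8B (0.998) and FGF19 to DCTN1 (0.957). These values describe 8 means that share libraries and carry no test.

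Other genes of the pathway were followed in 4 lists. Of 16 other FGF ligands 10 were measured, and 3 were higher and 0 lower in KO than in WT cells at 48 h, where 6.86% of all genes were higher and 5.07% lower, with a median log2 difference of 0.15 against -0.011 over all genes. FGF16 had 0.93 to 1.4 CPM in KO and 0 to 0.125 CPM in WT libraries (2.13 ± 0.25, adjusted p 1.59e-06), and FGF1, a ligand for all receptors, 1.06 to 1.51 CPM in KO and 0.31 to 0.723 CPM in WT (1.01 ± 0.20, 0.00105). FGF12, like FGF13 an intracellular factor, had 13.9 to 14.6 CPM in KO and 9.45 to 13 CPM in WT (0.34, adjusted p 0.0408), a call lost without any of the KO 48 h libraries, without WT 48 h library 2 or 3, or without KO 0 h library 2, WT 3 h library 1 or KO 6 h library 2 (0.0502 to 0.22).

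Of 26 co-receptors and extracellular modulators 25 were measured, and 5 were higher and 3 lower in KO cells at 48 h (median -0.02), where 11.9% of all genes were called. GPC4, a heparan sulfate proteoglycan, had 915 to 933 CPM in KO and 442 to 630 CPM in WT (0.78 ± 0.09, adjusted p 1.48e-06), and ANOS1, an extracellular FGFR1 modulator, 263 to 283 CPM and 153 to 219 CPM (0.59, 0.000236). FLRT2, a membrane protein that binds FGF receptors, was lower, at 38.4 to 42 CPM in KO and 67.3 to 81.8 CPM in WT (-0.91 ± 0.12, adjusted p 1.62e-05). Of 20 intracellular transducers all were measured and 1 was called, a smaller share than that of all genes. It was the kinase ARAF, higher at 57.1 to 62.9 CPM in KO and 39.7 to 44.6 CPM in WT (0.57, 9.78e-05). Among 17 ERK feedback and target genes 3 were higher in KO and 0 lower (median 0.06), against 6.86% and 5.07% of all genes. SPRY1, an inhibitor of RAS signalling, had 22.3 to 26.1 CPM in KO and 15.3 to 15.7 CPM in WT (0.62, adjusted p 9.65e-05), and the ETS factor ETV4 107.5 to 114 CPM and 77.4 to 87.9 CPM (0.42, 0.00043). ETV5, a close relative of ETV4, had 101 to 107 CPM in KO and 47.6 to 73 CPM in WT (0.75, adjusted p 0.0389), and lost its call without WT 48 h library 2 or 3 or any of the KO 48 h libraries (0.0517 to 0.206).

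The same lists held 17 differences between the genotypes at 0 h, 4 at 3 h, 3 at 6 h and 15 at 48 h. At 0 h 2 other ligands were higher and 1 lower in KO cells, 3 co-receptors and modulators lower, 2 transducers higher and 2 lower, and 5 ERK feedback and target genes higher and 2 lower, where 15.3% of all genes were called. The share of ERK feedback and target genes called, 7 of 17, was above that of all genes, and the lists of modulators and transducers, 3 of 25 and 4 of 20, were near it. At 3 h 0 other ligands, 2 modulators, 1 transducer and 1 feedback gene were called (2.78% of all genes), and at 6 h 1 ligand, 1 modulator and 1 transducer, all lower in KO (2.45% of all genes). The lists' counts carry no test of their own.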

How the data were processed

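Messenger RNA of HUES6 cells was sequenced in 24 libraries, 3 in each of 8 groups, with a stranded mRNA kit, per the labels' protocols. The authors deposited a gene table in CPM, in which reads are scaled to library totals with no correction for length, and a table of raw counts per transcript. Genome build hg38 and DESeq2 are named in the submitters' processing notes, and for the aligner, counting program and annotation nothing is given in the sources used here. Column names in the gene table stand 1 cell off their values. After this was corrected, 24 of 24 libraries were closest to their own column of the transcript table. All CPM values were whole multiples of 1 read within 0.1 read (100% of values), so reads per gene were recovered, 29896358 to 50451908 per library. Such reads are not unique molecules, and detection limits cover counting error only.

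CPM values were divided by TMM factors of the recovered reads and tested by limma 3.58.1 with a trend (R 4.3.3) on log2(CPM + 0.25), which understates changes of low genes. filterByExpr (minimum 10 reads, 15 in total) kept 19835 genes. The 8 group means entered 1 fit with no covariate and 16 residual degrees of freedom. The 17 comparisons were two-sided, with Benjamini-Hochberg adjustment over all genes tested in a comparison. Alternatives were RLE factors, CPM as deposited, pseudocounts of 0.1 and 1, no filter (38005 genes), at least 5 CPM in 3 libraries (12376 genes), edgeR 4.0.16 and DESeq2 1.42.0 on the recovered reads, only the groups compared, a replicate block, and libraries left out. The script that tests genes was tried on simulated counts for KO against WT at 48 h only. That simulation held no libraries that stand apart, and changes over time and differences of change were not simulated.

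The members, the 4 pathway lists, the cell type markers and the tests were chosen with earlier results of these data known. All 10 members are named, and of each pathway list up to 3 genes with the lowest adjusted p among those called between KO and WT at 48 h. Of the genes picked in the same way for 48 h against 0 h, values are given only for FLRT3, FLRT2, IL17RD and DUSP5, which rose. Picks without values for that change include IER3, which rose, and GPC3, BRAF, FGF16 and FGF23, which fell in KO cells, WT cells or both. Positions come from GENCODE 29 (GRCh38). The RefSeq promoter table held FGF2, FGF13, FGFR2, FGFR3 and FGFR4 among the members that could be shown. Tables and figures were made with Python 3.11, pandas 2.3.3 and matplotlib 3.10.9. Of the genes most like FGF8, 1 is not reported here.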

Additional observations from a re-analysis of the deposited data

Results flagged for a closer look

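The change from 0 to 3 h differed between the genotypes for 2 members by a test of the difference itself, limma's interaction term. FGFR3 rose more in KO than in WT cells, with a difference of 0.90 on the log2 scale (adjusted p 0.00375). FGF13 fell more in KO than in WT cells, with a difference of -0.48 (adjusted p 0.0293), in a design with 3 libraries per group, and this call was lost without any of 8 single libraries, with CPM as deposited, with no filter and with only the groups compared. In the transcript counts of FGF13, which hold 25.3% of its gene reads, the genotypes overlapped at 3 h.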

How the results depend on the processing

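Of 170 member results, 69 were called, and 0 of these turned sign in an alternative. Called results that stayed called were 68 with RLE factors, 66 with CPM as deposited, 69 with either pseudocount, 64 with no filter, 59 of 61 at 5 CPM, 67 by edgeR, 68 by DESeq2, 62 with only the groups compared and 68 without the 3 libraries that stood apart, which added 37. Replicate numbers did not pair the libraries throughout (same-number correlations of -0.186 to 0.187). In WT at 6 against 3 h and in KO at 3 against 0 h, though, each library of the later hour was closest to its same number. Those correlations were 0.0335 to 0.114 and 0.0416 to 0.0592. With the replicate block 69 of 69 calls stayed and counts were as reported, such as 1 member at 0 h and 1 at 48 h between KO and WT. TMM scaling moved the median gene by up to -0.155 (WT, 48 against 6 h), 0.134 (WT, 6 against 0 h) and 0.101 (WT, 3 against 0 h) relative to CPM as deposited.

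Counts of members called between KO and WT at 0 h were 2 at 5 CPM, 3 by DESeq2, 0 with only the groups compared, 6 without the 3 libraries and 0 to 5 with 1 library left out. At 3 h they were 1 by DESeq2 and 0 to 1 with 1 library left out, at 6 h 2 with only the groups compared and 1 without the 3 libraries, and at 48 h 2 and 5, with 1 to 2 when 1 library was left out. From 3 to 6 h KO cells had 3 with only the groups compared and 3 to 6 with 1 library left out, and WT cells 7 with only the groups compared and 7 without the 3 libraries. Different changes at 3 h numbered 1 with CPM as deposited, 1 with no filter, 1 with only the groups compared, 7 without the 3 libraries and 1 to 3 with 1 left out. At 6 h they numbered 1 by DESeq2, 7 without the 3 libraries and 0 to 2 with 1 left out, and at 48 h 6 and 0 to 2. For these alternatives the shares of all genes called are not given here, so the counts describe only how the member calls depend on the setting. The cause was not tested.

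All results that turned sign were uncalled with all libraries and the chosen settings. Of those turned, 4 had an adjusted p under 0.05 in the new direction, each without the 3 libraries, where it is description and no test. They were FGF2 between KO and WT at 0 h (adjusted p 0.00093) and the differences of change of FGF2 at 3 h (0.0216) and 6 h (0.00966) and of FGFR1 at 3 h (0.000236). Without the 3 libraries KO minus WT came to -0.315 for FGF2 and -0.162 for FGF19 at 0 h and to -0.0764 for FGFR4 and -0.117 for FGFR2 at 3 h, FGF4 in WT at 6 against 0 h to -0.122, FGF13 in KO to 0.0227 at 48 against 0 h and -0.0785 at 6 against 3 h, and the differences of change to 0.306 for FGF2 and -0.359 for FGFR1 at 3 h, 0.327 for FGF2 at 6 h and 0.111 for FGF19 at 48 h. CPM as deposited gave -0.0161 for FGF19 between KO and WT at 0 h, -0.00222 for FGF4 and -0.0434 for FGFR4 in WT at 6 against 0 h, and in KO -0.0106 for FGF19 at 6 against 0 h, 0.0288 for FGF13 at 48 against 0 h, and -0.0104 for FGF17 and -0.017 for FGF13 at 6 against 3 h. DESeq2 gave -0.00403 for FGF19 between KO and WT at 0 h, 0.00266 for FGF13 in KO at 48 against 0 h and 0.0122 for the FGF2 difference of change at 6 h. FGF2 between KO and WT at 6 h was -0.00402 with no filter, -0.0123 at 5 CPM and -0.00693 with only the groups compared. FGF13 in KO at 48 against 0 h was 0.00273 with RLE factors and 0.0573 with no filter, FGF19 in KO at 6 against 0 h -0.0094 at 5 CPM, and FGF17 in KO at 6 against 3 h -0.017 with pseudocount 0.1.

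With 1 library left out, KO minus WT ranged at 0 h over -0.317 to 0.384 for FGF2, -0.164 to 0.22 for FGF19 and -0.482 to 0.0387 for FGF8. At 3 h it ranged over -0.186 to 0.184 for FGF17, -0.372 to 0.208 for FGF4, -0.0799 to 0.387 for FGFR4 and -0.12 to 0.214 for FGFR2. At 6 h it ranged over -0.31 to 0.0765 for FGF17, -0.0339 to 0.0433 for FGF2 and -0.23 to 0.149 for FGF8, and at 48 h over -0.146 to 0.0493 for FGF13 and -0.0154 to 0.231 for FGF4. WT at 6 against 0 h ranged over -0.575 to 0.133 for FGF2, -0.297 to 0.228 for FGF8, -0.123 to 0.309 for FGF4 and -0.0135 to 0.127 for FGFR4, and at 6 against 3 h over -0.115 to 0.263 for FGF17 and -0.121 to 0.00441 for FGFR4. KO ranged over -0.543 to 0.037 for FGF4 at 3 against 0 h, -0.0405 to 0.0356 for FGF13 at 48 against 0 h, and at 6 against 3 h over -0.231 to 0.156 for FGF17, -0.0199 to 0.35 for FGFR3 and -0.0732 to 0.0842 for FGF13. Differences of change ranged at 3 h over -0.573 to 0.105 for FGF2, -0.00624 to 0.461 for FGFR4 and -0.203 to 0.15 for FGFR1, at 6 h over -0.377 to 0.329 for FGF2, -0.0812 to 0.441 for FGF8 and -0.254 to 0.0185 for FGFR1, and at 48 h over -0.213 to 0.0378 for FGFR1. Few gene reads limit FGF4, FGF8 and FGF17 before 48 h, where libraries held 3 to 43 reads of FGF8 and 4 to 36 reads of FGF4 and FGF17. For FGF4 the transcript counts of those libraries were higher, at 31 to 236.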

Other observations

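Other genes of the pathway also changed between 0 and 48 h. Of 25 measured co-receptors and modulators 11 rose and 5 fell in KO cells, and 9 rose and 6 fell in WT cells, where 52.8% and 53.3% of all genes were called. FLRT3, a membrane protein that binds FGF receptors, averaged 79.3 CPM at 48 h against 1.2 CPM at 0 h in KO cells (log2 change 5.73) and 136 CPM against 1.58 CPM in WT cells (6.21). FLRT2 averaged 39.8 CPM at 48 h against 5.37 CPM at 0 h in KO cells and 76.4 CPM against 7.21 CPM in WT cells.

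Of 17 ERK feedback and target genes 8 rose and 4 fell in KO cells at 48 h, and 9 rose and 6 fell in WT cells. Of all genes 52.8% were called in KO cells (25.4% higher and 27.4% lower) and 53.3% in WT cells (26.8% higher and 26.5% lower). IL17RD, which restrains FGF signalling at the membrane, averaged 581 CPM at 48 h against 212 CPM at 0 h in KO cells (1.41) and 660 CPM against 139 CPM in WT cells (2.22). DUSP5, a phosphatase of ERK in the nucleus, averaged 55.1 CPM against 16.3 CPM in KO cells (1.68) and 63.3 CPM against 16.7 CPM in WT cells (1.89). Of 10 other FGF ligands measured 4 rose and 1 fell in KO cells, and 1 rose and 4 fell in WT cells, in each a share called near that of all genes. The change from 0 to 48 h itself was called different for 3 of them, 2 higher and 1 lower in KO, against 3.83% and 3.92% of all genes. Among 20 transducers 8 rose and 2 fell in each genotype, again a share called near that of all genes.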
